A study of Mus musculus with 8 samples.

Results

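The 49 genes described here copy the genome and make its building blocks. They are the 6 subunits of the origin recognition complex, the licensing factors Cdc6 and Cdt1 with the inhibitor Gmnn, the 6 subunits of the MCM2-7 helicase, 9 genes of origin firing and fork protection, the sliding clamp Pcna and its 5 loader subunits, 9 subunits of the DNA polymerases and primase, 5 genes of single-strand binding and Okazaki fragment processing, and 5 enzymes of deoxynucleotide supply. They were picked by gene symbol from 53242 genes in the deposited tables. The rule names genes and uses no measured value, though it was written with earlier results of these data known. RNA was sequenced from splenic B cells of C57BL/6 mice aged 8 to 12 weeks after 24 h of culture on a layer of CD40LB cells in medium with 40 ng/ml IL4. CD40LB cells are irradiated fibroblasts that carry CD40 ligand and BAFF and that were removed by an antibody against H-2Kd before lysis. Control mice were Eif4a1 +/+ and 4A1 KO mice were Eif4a1 fl/fl, and the mice of both groups carried Cd23-cre, which acts from the splenic immature B cell onwards. The comparison asks how the loss of EIF4A1, the RNA helicase of the cap-binding complex that starts translation, alters the mRNAs of activated B cells. Each genotype had 4 libraries, of which replicates 1 and 3 came from males, replicates 2 and 4 from females, replicates 1 and 2 from batch A and replicates 3 and 4 from batch B. The study left replicate 1 of both genotypes out of its expression test because of reduced viability, so the tests across genes were made on replicates 2 to 4 (n = 3 per genotype), while the tests of ratios and of sex and batch used all 8 libraries. Values are shown for all 8.

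Before a cell copies its DNA, the origin recognition complex (ORC) marks replication origins and, with CDC6 and CDT1, loads the ring-shaped MCM helicase around the DNA, a step called licensing. In S phase the CDC7-DBF4 kinase, MCM10, CDC45 and the GINS complex turn the loaded ring into a moving helicase, and polymerases held by the PCNA clamp copy the unwound strands from deoxynucleotides made by ribonucleotide reductase, thymidylate synthase and related enzymes. Resting B cells express many of these genes at a low level and raise them when activation brings the cells into the cycle, and E2F transcription factors are known to bind the promoters of a large part of them.

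Since many of these genes are classical E2F targets, the promoter words are shown first. The promoter table of RefSeq, on GRCm38.p6, gave the sequence from 250 bases before to 50 bases after the start for 41 of the 49 genes. An E2F word (TTTCCCGC, TTTCGCGC, TTTGCCGC or TTTGGCGC, on either strand, overlapping matches counted) was present in 16 of the 41 genes (39.0%), against 2.60% of 27025 genes in the whole table. With TTTCGCGC and TTTGGCGC alone the shares were 26.8% and 0.929%. The cell cycle homology region word TTTGAA was in 17.1% of the 41 genes and 20.2% of all genes, and the word CCAAT was in 58.5% and 41.1%. The excerpts below lie upstream of the start and are written 5′ to 3′ on the strand of the gene, with the matched letters in capitals. They were chosen to show a match in each early step of replication, in an ORC subunit, a loading factor, the helicase ring and a GINS subunit, with Orc3 as a gene that was not called.
Orc1, chr4:108579411-108579450, plus strand: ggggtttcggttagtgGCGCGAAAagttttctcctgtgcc
Cdc6, chr11:98907997-98908036, plus strand: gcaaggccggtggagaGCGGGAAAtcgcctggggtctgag
Mcm5, chr8:75109340-75109383, plus strand: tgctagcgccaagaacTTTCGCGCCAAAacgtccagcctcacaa
Mcm6, chr1:128359729-128359831, minus strand: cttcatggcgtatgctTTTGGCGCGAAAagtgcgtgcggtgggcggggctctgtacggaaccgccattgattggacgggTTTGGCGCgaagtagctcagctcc
Mcm7, chr5:138172025-138172064, minus strand: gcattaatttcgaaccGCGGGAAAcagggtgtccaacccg
Gins3, chr8:95633502-95633541, plus strand: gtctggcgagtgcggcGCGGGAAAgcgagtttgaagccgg
Orc3, chr4:34614960-34614999, minus strand: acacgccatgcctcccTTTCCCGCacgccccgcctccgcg
In Mcm5 and Mcm6 the 12 capital letters are 2 overlapping matches on opposite strands, and Mcm6 holds a further match downstream of them. The Orc1 match begins 27 bases before the start, the Gins3 and Orc3 matches 41 bases and the Cdc6 match 138 bases. Matches were found in 13 of 32 genes called decreased below (40.6%) and in 3 of 9 genes not called (33.3%), and with TTTCGCGC and TTTGGCGC alone in 10 of 32 (31.2%) and 1 of 9 (11.1%). A match describes letters in this window and was not tested for binding.

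Total counts lay between 31727557 and 43210858 per library, and the 49 genes held 0.810% to 1.04% of them in control and 0.420% to 0.658% in 4A1 KO libraries. Eif4a1 itself was measured at 815, 746, 941 and 889 CPM (counts scaled to a common library size) in control replicates 1 to 4 and at 593, 559, 642 and 689 CPM in 4A1 KO replicates 1 to 4, with a log2 fold change of -0.44 ± 0.05 (SE). This change did not reach the fold threshold of 0.5 used below, so Eif4a1 was not called. Its genotypes did not overlap, beside 19.2% of all genes with every 4A1 KO library below every control. A whole-gene count cannot tell transcripts with the floxed exons from those without them, and their shares were not tested. The 6 B cell markers summed to 2373 to 2590 TPM in control and 1727 to 1934 TPM in 4A1 KO libraries, with Cd79a, Cd79b and Cd22 decreased. Fibroblast markers, of which the feeder cells could be a source, summed to 2.09 to 11.3 TPM in control and 2.35 to 6.25 TPM in 4A1 KO, with Dcn, Lum and Postn at 0 TPM in every library. T cell markers summed to at most 2.65 TPM, myeloid markers to at most 6.22 TPM and erythroid markers to at most 0.763 TPM in any library. Plasma cell markers summed to 165 to 204 TPM in control and 81.8 to 117 TPM in 4A1 KO, with Sdc1 and Xbp1 decreased in counts and TPM and Jchain not called. In the counts of replicates 2 to 4, Prdm1 and Col3a1 (1 to 38 counts in a library) were also called decreased and Adgre1 increased, but over 8 libraries these 3 genes were not called, and in the TPM Prdm1 and Adgre1 were not called and Col3a1 was not tested. Col1a1 and Col1a2 were not called in the counts. The part of these differences in the results was not tested.

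Of the 49 genes, 39 decreased in 4A1 KO B cells, 0 increased and 10 were not called. Calls needed an adjusted p under 0.05 in edgeR's quasi-likelihood test (Benjamini-Hochberg over all genes tested) and an absolute log2 fold change above 0.5. By the same rule 13.7% of the 14218 genes tested decreased and 11.6% increased. All 49 genes passed the filter on low counts, with 100 to 44118 counts in a library. Their median log2 fold change was -0.92, with a range from -2.65 for Rrm2 to 0.15 for Orc2, while the median of all genes was 0.01. A decrease of at least 2-fold was seen in 21 of the 49 genes and in 5.29% of all genes, and Rrm2, Clspn, Cdc6, Mcm10 and Tyms fell by at least 4-fold. With the normal shrinkage of DESeq2, the tool of the study, these 5 genes were still called, but their log2 fold changes were -0.97, -1.30, -1.05, -1.44 and -1.18, so that 0 of the 49 genes reached 4-fold and 18 reached 2-fold. Without shrinkage DESeq2 gave 5 and 21. The genes nearest the fold threshold were Rpa3 at -0.52 and Rfc1 at -0.54 inside it and Cdt1 at -0.40 and Pold1 at -0.39 outside it. In bulk RNA, fewer cells that express a gene and less of its RNA per cell cannot be told apart.

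**Figure D1:**
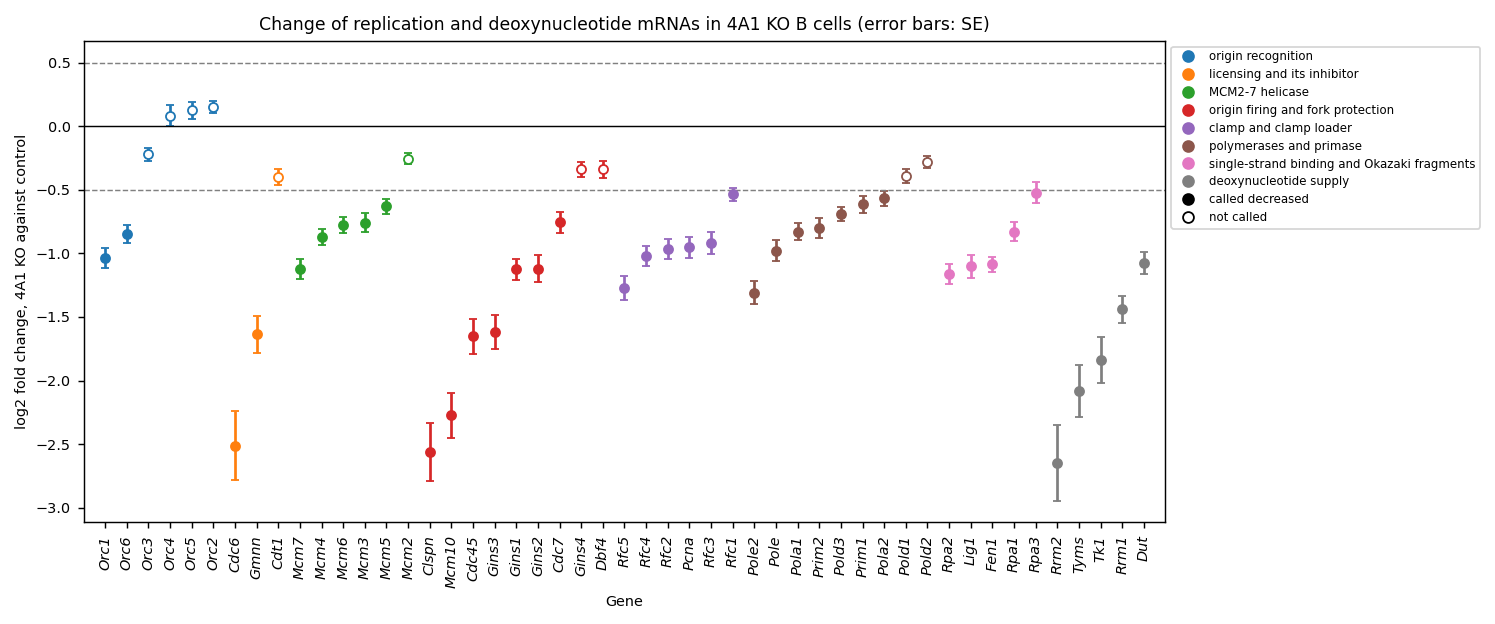
Log2 fold change of each of the 49 genes (vertical axis, 4A1 KO against control, replicates 2 to 4, bars SE), grouped by role along the horizontal axis. Filled points are called decreased and open points are not called, and dashed lines mark 0.5 on both sides of 0. In these counts deoxynucleotide supply has the lowest median, -1.84, and the ORC subunits lie nearest 0, with a median of -0.07.

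Several of these calls were made well inside the thresholds and a few were not. With edgeR's glmTreat, which tests against a log2 fold change of 0.5 in place of 0, 34 of the 49 genes were called decreased, against 6.94% of all genes, and Mcm5, Rfc1, Pola2, Prim1 and Rpa3 were no longer called. In the TPM, the second deposited readout of the same alignments, limma on log2(TPM + 1) called 38 genes decreased and 0 increased, against 11.8% of 12976 genes decreased. Tk1 was the gene called in the counts and not in the TPM. In all 8 libraries, 42 of the 49 genes were lower in every 4A1 KO library than in every control library, against 19.2% of all genes. These were 38 of the 39 called genes, with Pola1 the exception, and Cdt1, Gins4, Pold1 and Pold2 among those not called. The lowest Pola1 control was replicate 1 at 91.9 CPM and its highest 4A1 KO library replicate 4 at 94.1 CPM.

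The ORC subunits differed in their calls, with Orc1 and Orc6 decreased and the other four not called. Orc1, the large ATPase subunit that is made anew in each cell cycle, was at 32.7, 34.9, 36.9 and 43.0 CPM in control replicates 1 to 4 and at 13.1, 15.7, 17.7 and 23.0 CPM in 4A1 KO replicates 1 to 4. Orc6, the smallest subunit, was at 61.8, 70.6, 73.3 and 90.5 CPM in control and at 37.1, 35.3, 41.3 and 54.9 CPM in 4A1 KO. For both genes every 4A1 KO library lay below every control, and the log2 fold changes were -1.03 ± 0.08 (SE, adjusted p = 2.12e-05) and -0.85 ± 0.07 (SE, adjusted p = 2.64e-05).

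The core subunits Orc2 to Orc5, which stay on origins through most of the cycle, moved little. Orc2 was at 123, 154, 164 and 175 CPM in control and at 147, 179, 181 and 186 CPM in 4A1 KO, and in each same-numbered pair the 4A1 KO library was the higher, though the genotypes overlapped. Its log2 fold change of 0.15 ± 0.05 (SE) had an adjusted p of 0.0259 and did not reach 0.5. Orc4 was at 35.9, 35.8, 48.9 and 49.6 CPM in control and at 39.5, 45.8, 47.7 and 47.7 CPM in 4A1 KO, so that all 4A1 KO libraries fell within the span of the controls. Orc5 was at 26.9, 32.8, 34.2 and 39.8 CPM in control and at 37.6, 37.9, 36.4 and 42.0 CPM in 4A1 KO. These genes did not pass the test, with log2 fold changes of 0.08 ± 0.08 (SE, adjusted p = 0.427) and 0.12 ± 0.06 (SE, adjusted p = 0.131), and for Orc4 the estimate was -0.043 without replicate 2. Orc5 was higher in 4A1 KO in all 4 same-numbered pairs, and over 8 libraries its log2 fold change was 0.21 (adjusted p = 0.028), past the test but not the fold threshold. A pseudogene inside the Orc5 span, Gm15421, held counts equal to 6.75% of those of Orc5, and how reads that match both were counted is not given in the sources used here. Orc3 had a log2 fold change of -0.22 ± 0.05 (SE, adjusted p = 0.00676).

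The ratio of Orc1 to Orc2 sets these differences within each library. In TPM, which are scaled by transcript length, it was 0.324, 0.272, 0.273 and 0.297 in control replicates 1 to 4 and 0.108, 0.110, 0.121 and 0.149 in 4A1 KO replicates 1 to 4. All 4A1 KO ratios lay below all control ratios, with a log2 difference of -1.27 (exact permutation test, two-sided, p = 0.0286, 0.0429 adjusted over 3 ratios, 4 against 4 libraries). This raw p is the smallest that 4 against 4 libraries allow. The ratio was lower in 4A1 KO in all 4 same-numbered pairs, and permuted within these pairs the p was 0.125, the smallest an exact test of 4 pairs allows, so the call rests on libraries permuted without regard to pairing. With 3 against 3 libraries the smallest p is 0.1.

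Of the licensing genes, Cdc6 and Gmnn decreased and Cdt1 did not reach the fold threshold. Cdc6, the ATPase that brings the helicase to ORC (GRCm39 chromosome 11, 98798507 to 98814766, plus strand), was at 66.2, 109, 87.1 and 119 CPM in control and at 4.44, 11.2, 12.0 and 40.7 CPM in 4A1 KO. Replicate 4 was the highest of the 4A1 KO libraries and still lay below the lowest control. The log2 fold change was -2.51 ± 0.27 (SE, adjusted p = 9.76e-05), and -3.08 without replicate 4. Cdt1, the helicase loading partner, was at 213, 192, 168 and 185 CPM in control and at 162, 130.3, 137 and 147 CPM in 4A1 KO, with no overlap. Its log2 fold change was -0.40 ± 0.06 (SE, adjusted p = 7.36e-04).

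Gmnn encodes geminin, which binds CDT1 and blocks renewed loading after S phase has begun. It was at 61.8, 92.9, 67.2 and 79.7 CPM in control and at 13.7, 23.6, 18.7 and 36.8 CPM in 4A1 KO. No 4A1 KO library reached the lowest control, and the log2 fold change was -1.64 ± 0.15 (SE, adjusted p = 3.94e-05). The ratio of Cdt1 to Gmnn sets the loading factor beside its inhibitor in each library. In TPM it was 1.53, 0.898, 1.12 and 1.04 in control replicates 1 to 4 and 5.07, 2.46, 3.26 and 1.79 in 4A1 KO replicates 1 to 4. Every 4A1 KO ratio was above every control ratio, with a log2 difference of 1.38 (exact permutation test, two-sided, p = 0.0286, adjusted 0.0429, and 0.125 when permuted within pairs).

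All 6 subunits of the MCM2-7 ring had negative log2 fold changes, and 5 were called decreased. Mcm7 was at 431, 564, 495 and 548 CPM in control and at 183, 225, 219 and 301 CPM in 4A1 KO. Mcm4 was at 399, 511, 487 and 552 CPM in control and at 179, 256, 258 and 338 CPM in 4A1 KO. In both, all 4A1 KO libraries lay below all controls, and the log2 fold changes were -1.12 ± 0.08 (SE, adjusted p = 1.84e-05) and -0.87 ± 0.06 (SE, adjusted p = 1.71e-05). Mcm6, Mcm3 and Mcm5 followed at -0.78 ± 0.06, -0.76 ± 0.07 and -0.63 ± 0.06 (SE). Mcm2, whose protein also carries histones, was at 353, 367, 420.5 and 439 CPM in control and at 265, 308, 345 and 375 CPM in 4A1 KO. Its genotypes overlapped, since the highest 4A1 KO library exceeded the controls 1 and 2, and the log2 fold change was -0.25 ± 0.04 (SE, adjusted p = 0.00118).

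Although the proteins form a ring with equal parts of each subunit, their mRNAs were unequal, and their shares are given here as a description with no test. Of the summed TPM of the 6 subunits, Mcm2 took 8.62% to 10.5% in the control libraries and 12.8% to 14.3% in the 4A1 KO libraries. Mcm7 took 14.6% to 15.9% in control and 11.3% to 12.6% in 4A1 KO. Mcm5 took 19.8% to 21.7% in control and 22.1% to 23.6% in 4A1 KO, and Mcm6 took 17.34% to 17.86% in control and 15.96% to 17.26% in 4A1 KO. The shares of these 4 subunits did not overlap between genotypes, with Mcm2 and Mcm5 higher and Mcm7 and Mcm6 lower in 4A1 KO. Mcm3 took the largest share in every library, between 24.3% and 26.0%. The sum itself was 1955 to 2485 TPM in control and 984.9 to 1680 TPM in 4A1 KO.

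**Figure D2:**
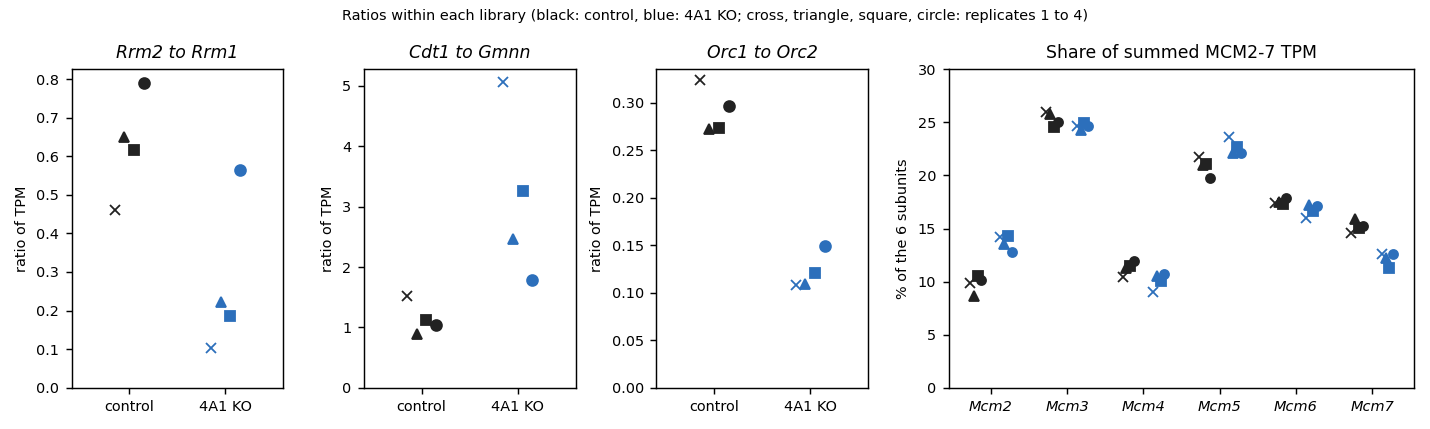
Left: ratio of TPM within each library for Rrm2 to Rrm1, Cdt1 to Gmnn and Orc1 to Orc2, by genotype. Right: share of the summed TPM of the MCM2-7 subunits (vertical axis, %) for each subunit. Black is control, blue is 4A1 KO, and cross, triangle, square and circle are replicates 1 to 4. Cdt1 to Gmnn and Orc1 to Orc2 do not overlap between genotypes, Rrm2 to Rrm1 does, and the shares of Mcm2 and Mcm5 are higher and those of Mcm6 and Mcm7 lower in all 4A1 KO libraries.

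Among the genes of origin firing and fork protection, 7 of 9 decreased. Clspn encodes claspin, which links the fork to the checkpoint kinase CHK1. It was at 50.9, 101, 65.9 and 113 CPM in control and at 3.15, 11.2, 8.85 and 33.5 CPM in 4A1 KO. Mcm10, which helps the loaded helicase to start, was at 79.4, 111, 115 and 153 CPM in control and at 8.67, 18.9, 17.7 and 49.3 CPM in 4A1 KO. In both genes 4A1 KO replicate 4 was well above the other 4A1 KO libraries and below all controls. The log2 fold changes were -2.56 ± 0.23 (SE, adjusted p = 4.01e-05) for Clspn and -2.27 ± 0.18 (SE, adjusted p = 2.34e-05) for Mcm10.

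Of the other parts of the moving helicase, Cdc45 fell by 1.65 on the log2 scale and the GINS subunits Gins3, Gins1 and Gins2 by 1.62, 1.13 and 1.12, while Gins4 was at -0.34 ± 0.06 (SE) and was not called. Of the 2 subunits of the kinase that fires origins, 1 was called. The catalytic subunit Cdc7 had a log2 fold change of -0.76 ± 0.08 (SE, adjusted p = 1.0e-04). Its activator Dbf4 was at 64.8, 81.8, 61.2 and 76.0 CPM in control and at 61.4, 63.0, 54.4 and 54.9 CPM in 4A1 KO. The Dbf4 values overlapped between the genotypes, and its log2 fold change was -0.34 ± 0.07 (SE, adjusted p = 0.00254).

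The clamp and all 5 subunits of its loader decreased. Pcna, the ring that holds polymerases on DNA, was at 453, 625, 521 and 579.8 CPM in control and at 237, 279, 258 and 361 CPM in 4A1 KO, with a log2 fold change of -0.95 ± 0.08 (SE, adjusted p = 3.6e-05). Rfc5, a small loader subunit, was at 82.4, 111, 98.3 and 112 CPM in control and at 33.0, 40.3, 37.7 and 57.0 CPM in 4A1 KO. For Pcna and Rfc5 every 4A1 KO library lay below every control. Rfc4, another small subunit, was at 62.9, 73.0, 72.0 and 77.7 CPM in control and at 29.6, 34.3, 32.1 and 44.1 CPM in 4A1 KO. Rfc1, the large subunit, was at 174, 219, 202 and 224 CPM in control and at 112, 147, 136 and 162 CPM in 4A1 KO. These 2 genes did not overlap between genotypes either, and the change of Rfc1 was the smallest of the loader. The log2 fold changes were -1.27 ± 0.09 for Rfc5, -1.02 ± 0.08 for Rfc4 and -0.54 ± 0.05 for Rfc1 (SE), with adjusted p values of 1.91e-05, 2.12e-05 and 4.26e-05, and those of Rfc2 and Rfc3 were -0.97 ± 0.08 and -0.92 ± 0.09. A pseudogene at least 90% identical to the Rfc5 transcript, Gm12870, held counts equal to 1.18% of those of Rfc5, and Pcna-ps2 held 0.86% of those of Pcna.

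Of the polymerase and primase subunits, 7 of 9 decreased, and the 2 that were not called, Pold1 and Pold2, belong to polymerase delta, which copies mainly the lagging strand. The most negative estimates of the 9 were those of Pole2 and Pole, 2 of the subunits of polymerase epsilon, which copies mainly the leading strand. Pole2, its second subunit, was at 35.8, 43.6, 49.8 and 55.1 CPM in control and at 12.0, 16.4, 18.0 and 26.4 CPM in 4A1 KO. Pole, its catalytic subunit, was at 145, 194, 173 and 222 CPM in control and at 51.6, 84.6, 85.9 and 133 CPM in 4A1 KO. All 4A1 KO libraries lay below all controls in both, with log2 fold changes of -1.31 ± 0.09 (SE, adjusted p = 1.65e-05) and -0.98 ± 0.08 (SE, adjusted p = 3.05e-05). Pold2 was at 161, 169, 160.4 and 160.0 CPM in control and at 154, 137, 131 and 135 CPM in 4A1 KO. The controls spanned less than 10 CPM, and all lay above the 4A1 KO libraries, but the log2 fold change of -0.28 ± 0.05 (SE, adjusted p = 0.00112) did not reach the threshold.

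The catalytic subunit of polymerase delta, Pold1, was at -0.39 ± 0.06 on the log2 scale, and its accessory subunit Pold3 decreased, at -0.69 ± 0.06 (SE). Polymerase alpha and primase, which lay down the primers, decreased in all 4 of their genes, with log2 fold changes of -0.83 ± 0.07 for Pola1, -0.80 ± 0.08 for Prim2, -0.61 ± 0.07 for Prim1 and -0.57 ± 0.06 for Pola2 (SE).

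All 5 genes of single-strand binding and Okazaki fragment processing decreased. Rpa2, the middle subunit of the protein that coats unwound DNA, was at 114, 144, 129 and 148 CPM in control and at 47.9, 56.0, 56.9 and 77.4 CPM in 4A1 KO. Lig1, the ligase that seals Okazaki fragments, was at 325, 462, 339.7 and 439 CPM in control and at 126, 178, 160.4 and 244 CPM in 4A1 KO. Both were lower in every 4A1 KO library than in every control, with log2 fold changes of -1.16 ± 0.08 (SE, adjusted p = 1.65e-05) and -1.10 ± 0.09 (SE, adjusted p = 2.64e-05). Fen1, the flap nuclease that trims the fragments, and Rpa1, the large subunit of the coat, were at -1.09 ± 0.06 and -0.83 ± 0.07 (SE). Rpa3, the small subunit, was at 24.7, 30.5, 24.6 and 32.0 CPM in control and at 18.2, 20.0, 19.5 and 20.7 CPM in 4A1 KO. Its 4A1 KO libraries were close to each other and below the controls, and its log2 fold change of -0.52 ± 0.08 (SE, adjusted p = 8.12e-04) was -0.48 without replicate 2 and -0.48 without replicate 4, outside the fold threshold.

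**Figure D3:**
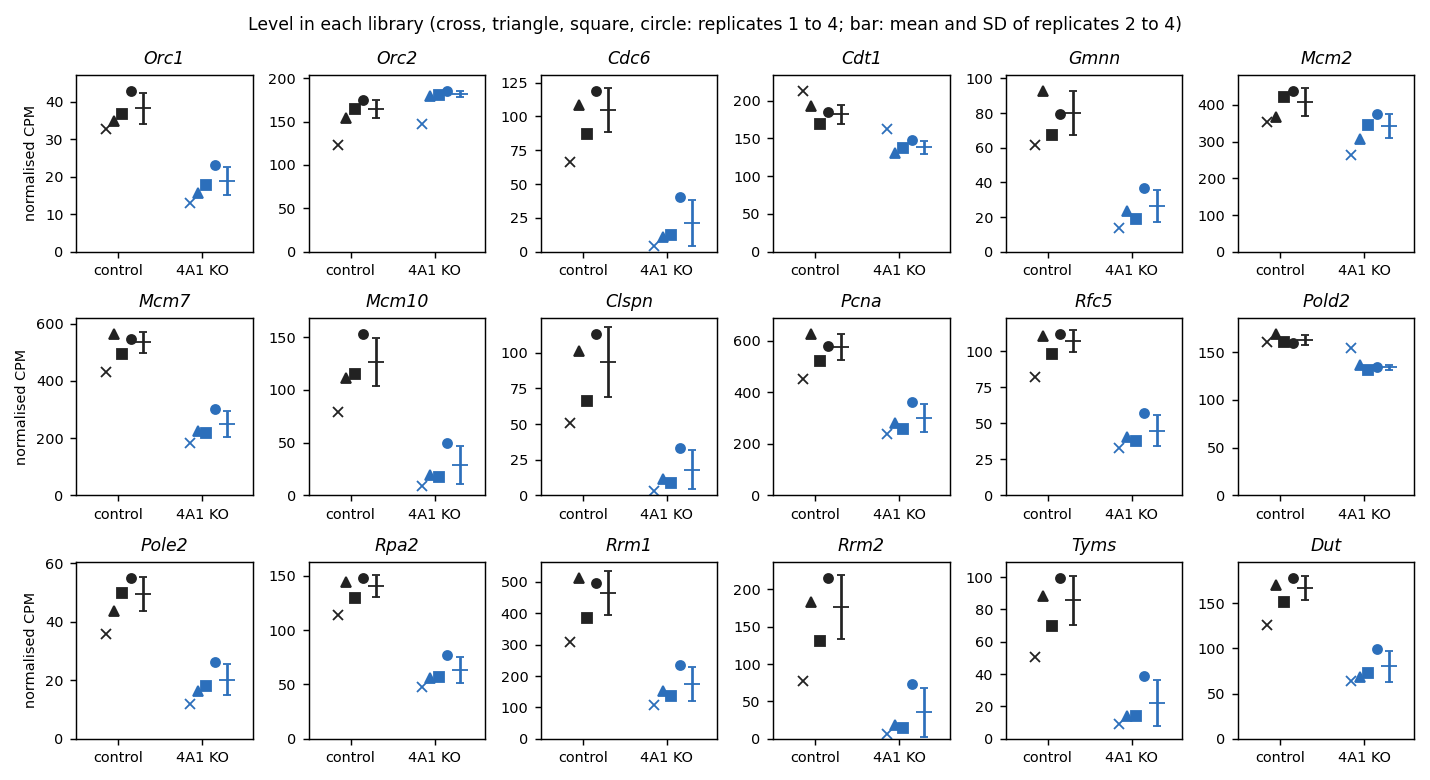
Level in CPM (vertical axis, TMM-normalised, from 0) of 18 genes in each library, black for control and blue for 4A1 KO. Cross, triangle, square and circle are replicates 1 to 4, and the bar beside them is the mean and SD of replicates 2 to 4. Rrm2, Cdc6, Clspn, Mcm10 and Tyms are lowest in 4A1 KO relative to control, Orc2 is not lower, and the circle of replicate 4 is the highest 4A1 KO point in most panels.

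All 5 genes of deoxynucleotide supply decreased by at least 2-fold in the counts. Their median log2 fold change of -1.84 was the lowest of the 8 roles, but in the TPM it was -1.44, above the -1.64 of the licensing genes. Rrm2, the regulated small subunit of ribonucleotide reductase, the enzyme that turns ribonucleotides into deoxyribonucleotides (GRCm39 chromosome 12, 24757811 to 24764145, plus strand), was at 77.9, 183, 131 and 216 CPM in control. It was at 6.21, 18.6, 14.0 and 73.2 CPM in 4A1 KO. Replicate 4 was the highest library in both genotypes, and its 4A1 KO value lay just under the lowest control, that of replicate 1. The mean of replicates 2 to 4 was 177 ± 42.9 CPM in control and 35.3 ± 32.9 CPM in 4A1 KO (SD, n = 3). The log2 fold change was -2.65 ± 0.30 (SE, adjusted p = 1.18e-04) and -3.27 without replicate 4.

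Rrm1, the large subunit, was at 309, 514, 386 and 496 CPM in control and at 109, 152, 137 and 235 CPM in 4A1 KO. No 4A1 KO library reached a control, and the log2 fold change was -1.44 ± 0.11 (SE, adjusted p = 2.12e-05). In TPM the ratio of Rrm2 to Rrm1 was 0.459, 0.650, 0.617 and 0.791 in control replicates 1 to 4 and 0.104, 0.223, 0.187 and 0.565 in 4A1 KO replicates 1 to 4. Of the 4A1 KO ratios, 3 were below every control, and that of replicate 4 exceeded the lowest control. The log2 difference was -1.48 and did not pass the test (exact permutation test, two-sided, p = 0.0571, adjusted 0.0571, and 0.125 when permuted within pairs). The ratio was lower in 4A1 KO in all 4 pairs.

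Tyms, thymidylate synthase, which makes dTMP from dUMP, was at 50.5, 88.2, 69.5 and 99.7 CPM in control and at 9.07, 14.1, 13.8 and 38.8 CPM in 4A1 KO. Dut, the dUTPase that supplies dUMP and keeps uracil out of DNA, was at 126, 170.4, 152 and 178 CPM in control and at 64.2, 68.0, 72.9 and 99.4 CPM in 4A1 KO. Neither gene overlapped between genotypes, and the log2 fold changes were -2.08 ± 0.20 (SE, adjusted p = 5.79e-05) and -1.07 ± 0.09 (SE, adjusted p = 2.48e-05).

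Tk1, the salvage kinase of thymidine in S phase, differed between the 2 deposited readouts. In CPM it was at 19.3, 40.8, 22.0 and 28.2 in control and at 4.60, 8.66, 5.09 and 12.1 in 4A1 KO, a log2 fold change of -1.84 ± 0.18 (SE, adjusted p = 5.83e-05). In TPM it was at 53.4, 67.8, 48.1 and 58.8 in control and at 41.5, 37.1, 46.9 and 48.6 in 4A1 KO. The TPM of the genotypes overlapped, and their log2 fold change of -0.39 did not reach the threshold. The Tk1 span (GRCm39 chromosome 11, 117702770 to 117717042, minus strand) overlaps Syngr2, Gm20708 and Afmid on the opposite strand, and Syngr2 was at a mean of 955.5 CPM in control and 1017 CPM in 4A1 KO. The part of these neighbours in the Tk1 values was not tested.

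**Figure D4:**
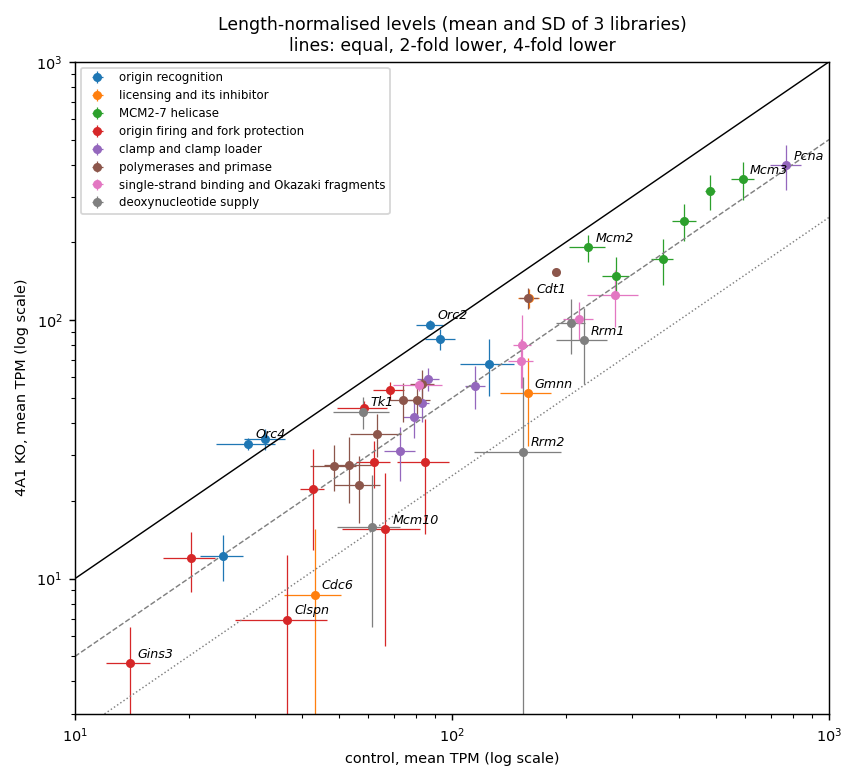
Mean TPM of each gene in control (horizontal axis, log scale) and 4A1 KO (vertical axis, log scale) over replicates 2 to 4, with SD bars that are cut where they pass below the axis. Lines mark equal levels, 2-fold lower and 4-fold lower levels. Pcna is highest in both genotypes, at 771 and 398 TPM, Gins3 is lowest, at 14.0 and 4.70 TPM, and Orc2, Orc4 and Orc5 lie above the line of equal levels.

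Levels can be compared between genes in TPM. In control B cells the 49 genes spanned from 14.0 TPM for Gins3 to 771 ± 73.6 TPM for Pcna (SD, n = 3), with Mcm3 at 591 TPM and Mcm5 at 484 TPM next. In the order of control levels, 41 of 48 neighbouring genes differed by less than the sum of their SDs, so most places in the order are not resolved. The size of the change did not follow the level, since across the 49 genes the correlation of log2 TPM in control with the log2 fold change was 0.113 (Pearson, genes are not independent replicates).

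The same genes were low or high together in a library. Among the 39 decreased genes, 4A1 KO replicate 4 was the highest of the 4A1 KO libraries in 39, 4A1 KO replicate 1 the lowest in 38 and control replicate 1 the lowest control in 37. The median difference of the 49 genes between the libraries of a same-numbered pair was -1.06 in replicate 1, -1.06 in replicate 2, -1.01 in replicate 3 and -0.71 in replicate 4, on the log2 scale of CPM. All 39 decreased genes were lower in the 4A1 KO library of each of the 4 pairs. The smallest difference of the 4 pairs was in replicate 4 for 37 of them, with Rpa3 and Fen1 the exceptions. These counts cover genes already called decreased, and no share over all genes is given beside them, so they are not particular to these genes. The coefficient of variation over replicates 2 to 4 had a median of 8.97% in control and 17.6% in 4A1 KO over the 49 genes.

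**Figure D5:**
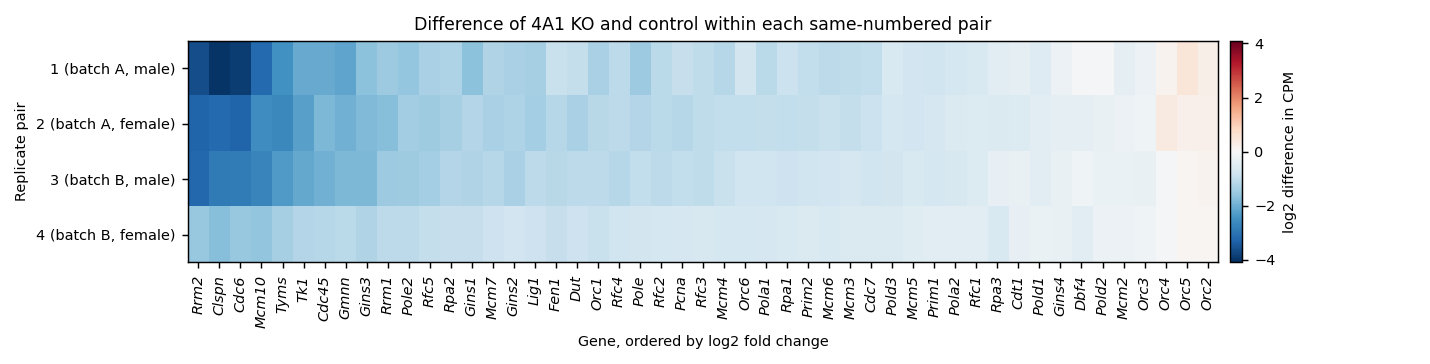
Log2 difference in CPM between the 4A1 KO and the control library of each same-numbered pair (rows) for the 49 genes (columns, ordered by fold change), with blue for lower and red for higher in 4A1 KO. The row of replicate 4 is paler than the others, with a median of -0.71.

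Whether the genotype effect differed by sex or batch was tested as an interaction term in edgeR over all 8 libraries. With Benjamini-Hochberg adjustment, 0 of the 49 genes differed by sex, against 0% of all genes, and 0 differed by batch, against 0.00704% of all genes. At an unadjusted p under 0.05 there were 4 of the 49 genes for sex, against 2.85% of all genes, and 18 for batch, against 4.29%. For 17 of these 18 genes the decrease was the smaller in batch B, which holds 4A1 KO replicate 4. Cdc6 was at a difference of 1.42, Clspn at 1.25 and Rrm2 at 1.16 on the log2 scale. Batch A holds replicate 1, which the study left out for reduced viability. Its pair difference was the largest of the 4 in 21 of the 39 decreased genes. With 2 libraries per genotype and batch, the batch and the single library in it cannot be told apart.

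A wider list of 42 replication and deoxynucleotide genes outside the 49 gave 21 decreased, 0 increased and 21 not called, with a median log2 fold change of -0.52, beside 13.7% of all genes decreased and 11.6% increased. Pclaf, a PCNA-binding factor of S phase, was at 124, 276, 178 and 257 CPM in control and at 8.35, 25.6, 18.9 and 81.6 CPM in 4A1 KO. Top2a, the topoisomerase that untangles copied DNA, was at 261, 597, 385 and 601 CPM in control and at 52.3, 109, 84.9 and 219 CPM in 4A1 KO. Dna2, a nuclease of flaps and stalled forks, was at 19.7, 30.2, 27.2 and 37.2 CPM in control and at 4.66, 8.04, 6.38 and 15.0 CPM in 4A1 KO. These are the largest decreases of the list, and none of the 3 overlapped between genotypes, beside 19.2% of all genes with every 4A1 KO library below every control. Their log2 fold changes were -2.74 ± 0.30 (SE, adjusted p = 9.53e-05, -3.34 without replicate 4), -2.03 ± 0.16 (SE, adjusted p = 2.25e-05) and -1.75 ± 0.14 (SE, adjusted p = 2.7e-05).

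Within this list, genes of the same pathway step also differed in their calls, and these differences between genes were not tested. Dck, which salvages deoxycytidine, decreased with a log2 fold change of -1.45 ± 0.11 (SE). The mitochondrial kinases Tk2 and Dguok, which are not tied to S phase, were at 0.29 ± 0.12 and 0.00 ± 0.09 (SE), and Rrm2b, the alternative small subunit of ribonucleotide reductase, was at -0.25 ± 0.09 (SE), none of them called. Pole3 and Pole4, the histone-fold subunits of polymerase epsilon, were at -0.29 ± 0.05 and 0.16 ± 0.05 (SE) and were not called, while Pole and Pole2 were. Pold4, the small subunit of polymerase delta, decreased with a log2 fold change of -0.68 ± 0.07 (SE), while Pold1 and Pold2 were not called. Mcm9, an MCM relative outside the ring, was at 0.34 ± 0.08 (SE, adjusted p = 0.0047) and did not reach the fold threshold, while Mcm8, its partner, decreased with a log2 fold change of -0.73 ± 0.07 (SE).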

How the data were processed

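RNA of 8 libraries was sequenced, 4 per genotype, grouped by their labels. The authors trimmed reads with Trim Galore 0.6.6, mapped them to GRCm39 with HISAT2 2.1.0, and deposited raw counts of opposing-strand read pairs per gene over merged isoforms, made with Seqmonk. The deposited TPM were calculated by the authors with StringTie 2.1.1. How reads with several matches were counted is not given in the sources used here, so close copies and the 13 genes with an overlapping same-strand annotation are less certain.

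Counts were tested in R 4.3.3 with edgeR 4.0.16 (filterByExpr, TMM, quasi-likelihood test, Benjamini-Hochberg over 14218 genes). Batch and sex were covariates, and over 6 libraries these equal a replicate block. Pairing rests on the batch and sex labels. The deviations of same-numbered libraries from their genotype means correlated at 0.488, 0.403 and 0.333. The mean of -0.203 for other pairs follows largely from subtracting the genotype mean over 3 libraries, so it is no separate comparison. TPM were tested with limma 3.58.1 on log2(TPM + 1), at a mean of at least 1 TPM. CPM were computed from the counts with TMM factors over 8 libraries. Library SDs cover the spread between mice. Standard errors come from the fit and cover the spread left after batch and sex, with variance information shared across genes. The depth of 31727557 to 43210858 counts gave at least 100 counts for each of the 49 genes in each library. Promoter sequences came from RefSeq, pseudogenes from GENCODE M39 transcripts matched with blastn 2.17.0 over at least 200 bases.

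Full values were given, per role, for the 2 called genes with the largest change and the gene with the smallest, and for genes with an adjusted p of 0.05 or more, genes of the 3 ratios, genes with a library far from the others, and the 3 leading genes of the wider list. Values of Pcna, Tk1 and the other genes of the wider list were added after they had been seen. The members and lists were chosen with earlier results of these data known. Alternatives were DESeq2 1.42.0 with and without shrinkage, other normalizations, filters, pseudocounts and libraries, and glmTreat. The scripts were tested on simulated data.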

Additional observations from a re-analysis of the deposited data

Results flagged for a closer look

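Over the 49 genes and 2 genotypes, 100 groups of 4 libraries (with the targeted gene) were searched for a library whose gap to its nearest neighbour takes up too much of the range of its group by Dixon's criterion for 4 values, and 3 groups held one, where chance gives about 5. Orc2 in 4A1 KO replicate 1 was at 147 CPM while the other 4A1 KO libraries were at 179 CPM or more, a gap of 0.8349 of the range. Pold2 in control replicate 2 was at 169 CPM while the other controls were at 161 CPM or less, a gap of 0.8615. Tyms in 4A1 KO replicate 4 was at 38.8 CPM while the others were at 14.1 CPM or less, a gap of 0.8304. Without that replicate of both genotypes the log2 fold change of Tyms was -2.49, against -2.08 with it.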

How the results depend on the processing

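The count of 39 decreased genes was the same under other normalizations, DESeq2, other filters and all 8 libraries, with 38 to 39 when a replicate was left out and 34 with glmTreat. The TPM gave 37 to 39 when a replicate was left out, 36 with no filter on low TPM and 38 under the other alternatives. The wider list gave 20 to 22, and 17 with glmTreat. No gene of the 49 was called increased under any of these alternatives. Over all genes, 3596 were called, 1627 with glmTreat, and 3083 to 3821 with a replicate left out. Without the replicate block 39 of the 49 genes and 3000 of all genes were called, and with the replicate block over 8 libraries 39 and 3678, so pairing changed no call of a gene among the 49. Among the 49 genes, Orc4 alone changed sign, with estimates from -0.043 to 0.15 as each replicate was left out, and Rpa3 alone lost its call in these fits, at -0.48 without replicate 2 and without replicate 4. With 6 libraries the log2 difference of the ratio of Cdt1 to Gmnn was 1.26 and that of Orc1 to Orc2 was -1.16, at a p of 0.1, the smallest 3 against 3 libraries allow. With the replicate block, a permutation within pairs added after seeing the data, their log2 differences of 1.38 and -1.27 and the -1.48 of Rrm2 to Rrm1 each had a p of 0.125, the smallest 4 pairs allow. The number of genes at or past 4-fold was 5, with 0 under the normal shrinkage of DESeq2 and 4 to 6 with a replicate left out. Other scalings moved the median of all genes by at most 0.03 on the log2 scale. The lowest count of any of the 49 genes in a library was 100.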
